A study of Mus musculus with 8 samples.

Results

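The lysosomal genes examined here are 46 listed genes for cathepsins and their inhibitors, other acid hydrolases and their activators, lysosomal membrane and lipid transfer proteins, and subunits of the vacuolar proton pump. They were taken as all probe sets whose platform annotation names a listed gene. A probe set is a group of short array probes that measure 1 transcript. In all 44 of the 46 genes had a probe set, among 10437 named genes tested on the arrays, and Cd63 and Atp6v0c had none named here. These 44 genes had 76 probe sets, of which 75 passed the filter on low signals. The untested one belonged to Atp6v1b2, which had other probe sets. By role, 12 genes were cathepsins, legumain or cystatins, 17 were other hydrolases or their activators, 4 were membrane or lipid transfer proteins, and 11 were V-ATPase subunits.

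The cells were bone marrow derived macrophages of mice, grown from marrow in M-CSF, a macrophage growth factor, at 50 ng/ml for 7 days. Total RNA was measured on 8 one-colour arrays. Every combination of genotype, IFN-gamma and calcitriol had 1 array. The genotypes were wild type and Vdr-/-, in which the allele Vdr tm1 Rge knocks out the receptor for vitamin D. Calcitriol, written 1alpha,25(OH)2D3 in the labels, is the active form of that vitamin. The 4 arrays without IFN-gamma were wild-type untreated, wild-type calcitriol, Vdr-/- untreated and Vdr-/- calcitriol. The 4 arrays with IFN-gamma were wild-type IFN-gamma, wild-type IFN-gamma with calcitriol, Vdr-/- IFN-gamma, and Vdr-/- IFN-gamma with calcitriol. Signals are given below in these orders. Treatment lasted 24 to 48 hours, and no time is given for the untreated arrays. The sources used here do not give doses, strain, sex, age or the number of mice, and any difference between the mice or cultures cannot be told apart from genotype. Nothing says that arrays came from separate cultures or animals. The p-values rest on the disagreement between array pairs, which the test draws toward the spread of all probe sets of similar signal. For a gene whose pairs disagree more than most, the SE is thus smaller than its own pairs would give.

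Lysosomes are acid compartments in which macrophages break down what they take up. The V-ATPase, a proton pump of a membrane V0 sector and a cytosolic V1 sector, acidifies the lumen, and the low pH activates proteases such as the cathepsins and hydrolases of sugars and lipids. IFN-gamma activates macrophages to kill microbes and to present antigens, and cathepsins cut the proteins and the invariant chain that supply MHC class II molecules.

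Both arrays with the highest 3'/5' signal ratios of the Gapdh control probe sets, a measure that rises when labelled RNA is truncated, lacked IFN-gamma. They were wild-type calcitriol (7.67) and Vdr-/- untreated (4.82). Vdr-/- IFN-gamma had a ratio of 3.06, and the 5 remaining arrays had 0.853 to 1.65. Log2 signals of these 2 arrays correlated with those of the other 6 with Pearson's r of 0.741 to 0.809, against 0.815 to 0.897 among the other 6 (over probe sets, which are not independent). Signals of Vdr itself went against the labels of the untreated arrays. They were 6.7 and 5.3 in its 2 probe sets on the wild-type untreated array and 90.3 and 63.2 on the array labelled Vdr-/- untreated. Under the other treatments the signals went with the labels. For calcitriol they were 51.5 and 118.1 on the wild-type array against 2.6 and 9.8 on the Vdr-/- array. For IFN-gamma they were 84.4 and 82.9 against 45.6 and 2.5. For IFN-gamma with calcitriol they were 226.7 and 385.9 against 25.0 and 23.6. The sources used here do not say where these probe sets lie relative to the deletion, so they may check nothing. Macrophage markers such as Csf1r (9768.9 to 23760.8) and Lyz2 (16652 to 28242.7) were detected on all 8 arrays. All 4 check genes for IFN-gamma (Irf1, Cxcl9, Ciita and Gbp2) rose with it.

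To ask which lysosomal genes the cytokine changed, arrays with and without IFN-gamma were compared in 4 pairs. Among the 44 genes, 4 rose (Ctsc, Ppt1, Ctse and Ctsh) and 3 fell (Ctsl, Ctsd and Atp6v1a) at an adjusted p under 0.05 in limma, a linear model fitted over all probe sets with Benjamini-Hochberg adjustment. Each gene was represented by its probe set with the highest mean signal. Among all 10437 genes, 2.42% rose and 1.56% fell, against 4 and 3 of 44 here. Counting a gene as called when any of its probe sets was, 11 of the 44 were called, against 4.35% of all genes. Of the 7 genes, 5 belonged to the cathepsin group of 12. The median change of the 44 genes was -0.06 log2, with 56.8% of them below 0, beside -0.09 log2 and 56.7% for all genes. In a bulk culture, fewer cells of a type and less RNA per cell cannot be told apart.

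**Figure D1:**
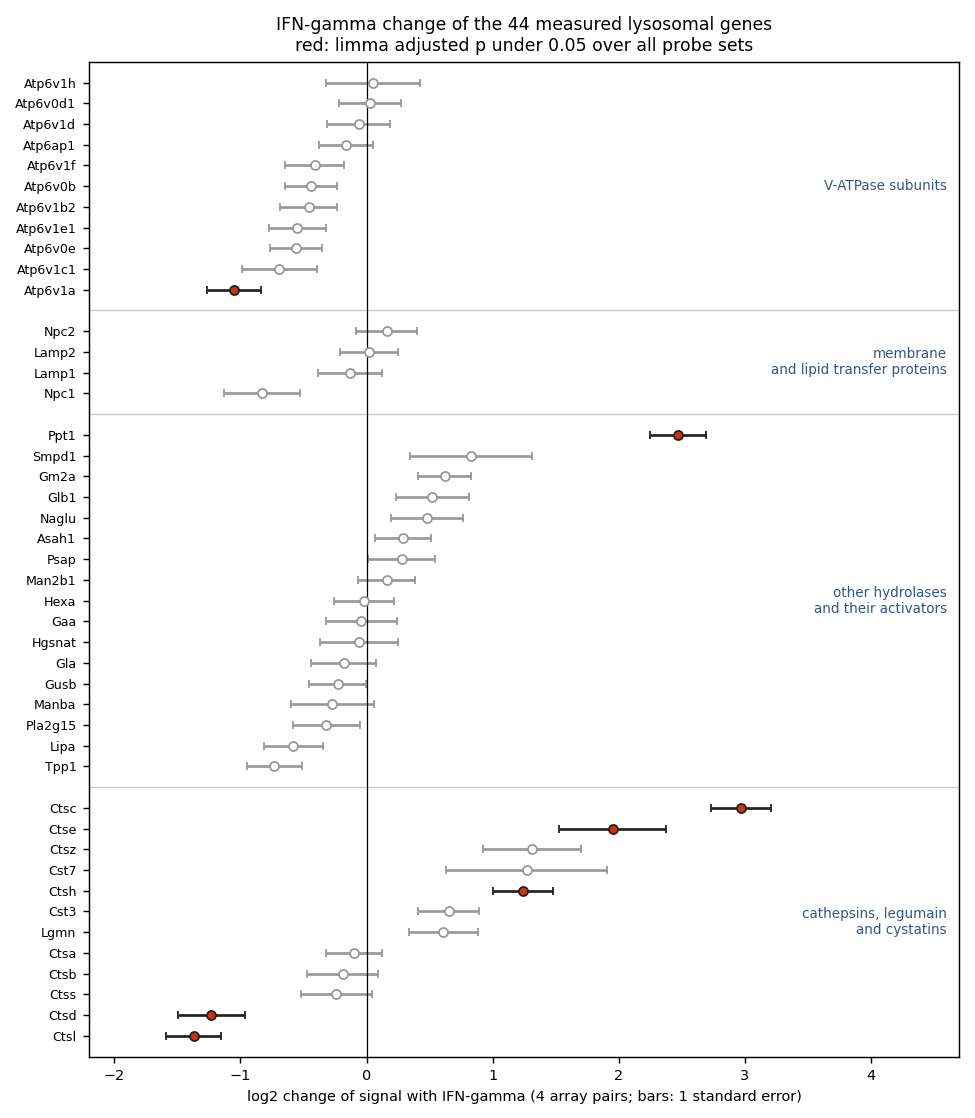
Change of the 44 measured lysosomal genes with IFN-gamma on the log2 scale (horizontal axis), 1 row per gene in the 4 role groups; points are the limma estimates over 4 array pairs, bars are 1 standard error, and red points passed the adjusted p of 0.05. Ctsc (2.97) and Ppt1 (2.47) lie farthest to the right and Ctsl (-1.37) farthest to the left, and 9 of the 11 V-ATPase subunits lie below 0.

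Cathepsin C (Ctsc), the dipeptidyl peptidase that activates granule serine proteases, had the largest IFN-gamma change of the 44 genes. Its signal was 1257.2, 941.8, 917.9 and 2245.1 on the 4 arrays without IFN-gamma and 10577.2, 6841.9, 12043.9 and 10587.9 on those with it. The 2 sets of arrays did not overlap, and the highest array without the cytokine was Vdr-/- calcitriol. Ctsc rose 7.84-fold, by 2.97 log2 (SE 0.238, limma adjusted p = 4.38e-09).

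Palmitoyl-protein thioesterase (Ppt1), which removes fatty acids from proteins in the lysosome, read 364.3, 436.5, 261.9 and 442.9 without IFN-gamma. With it the signals were 1939.7, 3561.1, 1439.7 and 1756.4. Every IFN-gamma array lay above every other array, and wild-type IFN-gamma with calcitriol was the highest. Ppt1 rose by 2.47 log2 (SE 0.225, limma adjusted p = 3.93e-08), or 5.55-fold, and its other probe set rose by 2.18 log2 (adjusted p = 4.90e-07).

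Cathepsin H (Ctsh), a cysteine protease that mostly acts as an aminopeptidase, read 3392.1, 2462.1, 2236.3 and 3430.8 without IFN-gamma and 7082.4, 10537.6, 4506.6 and 5955.1 with it. The arrays did not overlap between the conditions. Its rise was 1.24 log2 (SE 0.24, limma adjusted p = 0.00199), or 2.36-fold. With the Gapdh ratio as a covariate the change was 0.91 log2 and just missed the threshold (adjusted p = 0.0501), and Ctsh was lowest on both arrays with the highest ratios. Cathepsin E (Ctse), an endosomal aspartic protease, read 44.1, 128, 22.3 and 68.9 without IFN-gamma and 228, 273.5, 139.4 and 225.4 with it. These arrays did not overlap either, although wild-type calcitriol (128) came close to Vdr-/- IFN-gamma (139.4). Ctse rose by 1.95 log2 (SE 0.427, adjusted p = 0.0066). A second Ctse probe set, at 5.5 to 63.7 on the 8 arrays, changed by 0.54 log2 and was not called (limma adjusted p = 0.813).

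Cathepsins L and D moved the other way. Cathepsin L (Ctsl), a cysteine endopeptidase, read 5474.4, 7283.2, 7084.2 and 7390.1 without IFN-gamma and 2571.5, 2917.5, 2578.3 and 2389.8 with it. The ranges lay well apart, and the IFN-gamma arrays were close to each other. Ctsl fell by 1.37 log2 (SE 0.219, limma adjusted p = 0.00021), a 2.59-fold fall. Cathepsin D (Ctsd), the main aspartic protease of the lysosome, read 10468.4, 4964.6, 3697.4 and 11913.9 without IFN-gamma and 5000.8, 4661.1, 1123.2 and 2898.1 with it. Here the conditions overlapped, since the low arrays without IFN-gamma were wild-type calcitriol and Vdr-/- untreated, those with the highest Gapdh ratios. Ctsd was nonetheless lower with IFN-gamma in 4 of 4 pairs and fell by 1.23 log2 (SE 0.266, limma adjusted p = 0.00615). With the Gapdh ratio as a covariate Ctsd fell by 1.66 log2 (limma adjusted p = 0.000319), and without those 2 arrays its change of -1.92 log2 was no longer called (adjusted p = 0.276).

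**Figure D2:**
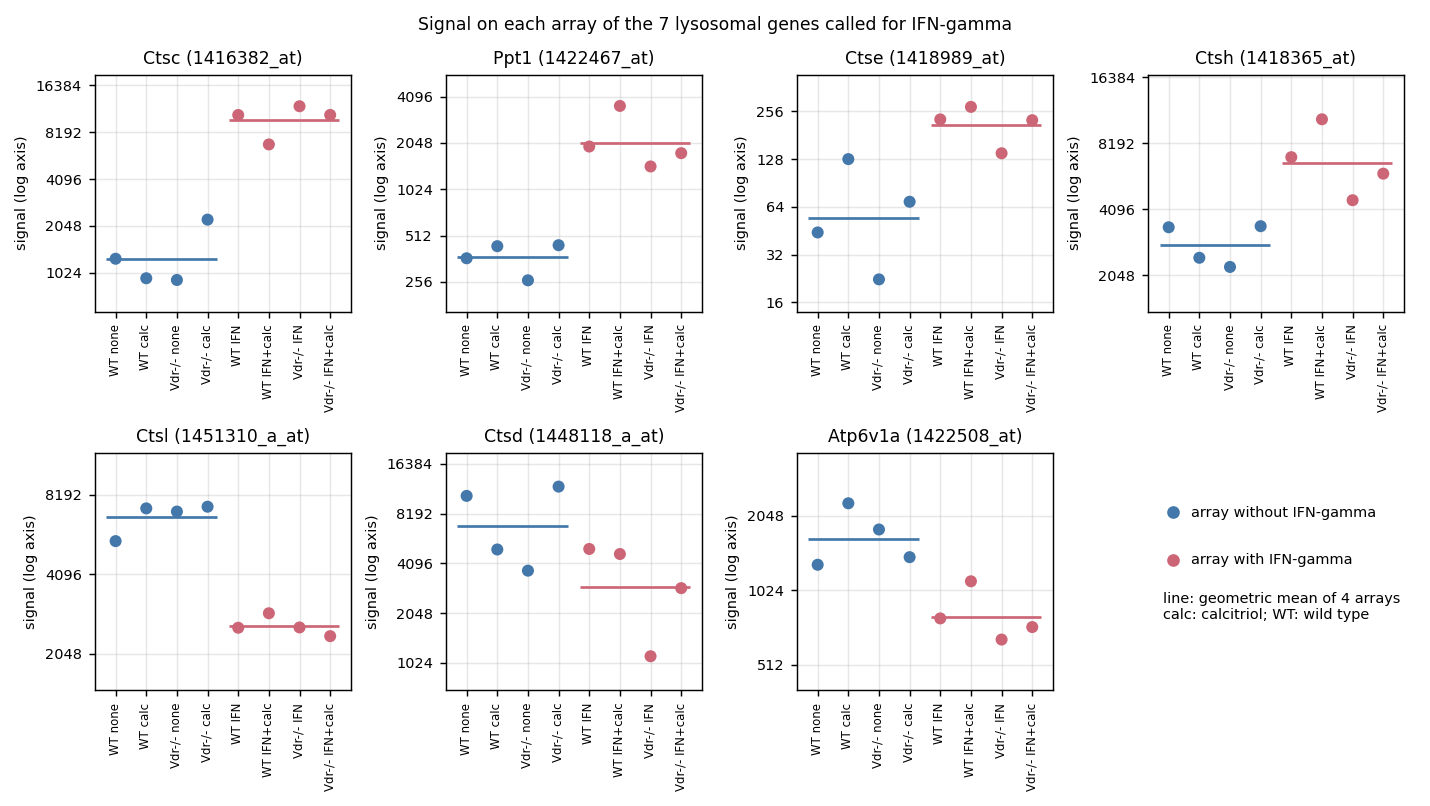
Signal (vertical log axis) of the 7 lysosomal genes called for IFN-gamma on each of the 8 arrays (horizontal axis), blue without and red with IFN-gamma; points are single arrays and lines are geometric means of 4 arrays. The colours do not overlap for 6 of the genes, and for Ctsd the blue arrays at 4964.6 and 3697.4 lie among the red ones.

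Only Atp6v1a, the catalytic A subunit of the V1 sector, was called among the 11 V-ATPase subunits. It read 1297.8, 2301.2, 1802.7 and 1393.1 without IFN-gamma and 787.3, 1112.6, 646.5 and 726.4 with it. No array of one condition reached the range of the other. Atp6v1a fell by 1.05 log2 (SE 0.215, limma adjusted p = 0.00358), or 2.07-fold, and its second probe set fell by 1.07 log2 (adjusted p = 0.00291).

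The remaining cathepsins and inhibitors did not pass the test by their representative probe set. The group's median change was 0.63 log2, with 41.7% of its genes below 0. Cathepsin S (Ctss), the protease best known for cutting the invariant chain in antigen presenting cells, read 18852.9, 26427.6, 25231.9 and 21238.7 without and 18620.1, 19972.7, 18647.9 and 19865.4 with IFN-gamma. These signals overlapped, and the change was -0.24 log2 (limma adjusted p = 0.809). Cathepsin Z (Ctsz), a carboxypeptidase, changed by 1.31 log2 (limma adjusted p = 0.0719). One of its other probe sets rose by 1.38 log2 (adjusted p = 0.0496). Both were higher with IFN-gamma in 2 of 4 pairs, the pairs that held the arrays with the highest Gapdh ratios. Cystatin F (Cst7), an inhibitor sent to lysosomes, read 6, 10.6, 103.3 and 48 without and 112.9, 64.9, 67.9 and 81.9 with IFN-gamma. Both wild-type arrays without the cytokine were under the floor of 15.5 set on all signals, and the change of 1.27 log2 had an SE of 0.64. Cystatin C (Cst3), a secreted cysteine protease inhibitor, was higher in 4 of 4 pairs, by 0.65 log2 (limma adjusted p = 0.202). Legumain (Lgmn), which cuts after asparagine, changed by 0.61 log2 and the carboxypeptidase cathepsin A (Ctsa) by -0.10 log2.

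Cathepsin B (Ctsb), an abundant cysteine protease, gave different answers by probe set. One probe set fell by 0.99 log2 (limma adjusted p = 0.00774), from 2921.3, 5346.3, 3806.8 and 3199 to 1980.9, 2290.1, 1439.6 and 1889.9. These arrays did not overlap. The representative Ctsb probe set, at 12518.8 to 22063.5, changed by -0.19 log2. The other two changed by -0.68 and 0.41 log2, and neither was called.

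Among the other 17 hydrolases and activators, Ppt1 was the 1 gene called, and the median change was -0.02 log2. The GM2 activator (Gm2a), which presents gangliosides to hexosaminidase, had non-overlapping arrays of 1914.3, 1931.8, 1516.4 and 1553.7 against 2742.8, 4052.9, 2064.6 and 2129.7. Its change of 0.62 log2 missed the threshold (limma adjusted p = 0.141), while its second probe set rose by 1.38 log2 (adjusted p = 0.0308). Tripeptidyl peptidase (Tpp1) was lower in 4 of 4 pairs by both probe sets, at -0.73 and -0.80 log2 (limma adjusted p = 0.0792 and 0.116). Acid lipase (Lipa), which frees cholesterol from its esters, was lower in 4 of 4 pairs by its 3 probe sets, at -0.58 to -0.76 log2, and none was called. Prosaposin (Psap), the precursor of the saposins, read 19632.6, 11033.9, 9337.4 and 11173 without and 16350.2, 15054.8, 14159.7 and 14018.1 with IFN-gamma, a change of 0.28 log2. Acid sphingomyelinase (Smpd1) read 183.5, 99.9, 17.7 and 156.3 without and 139.4, 155.3, 145.8 and 159.5 with it, a change of 0.83 log2. For both genes the arrays overlapped, and Vdr-/- untreated was the lowest. Changes of the sugar hydrolases Hexa, Gaa, Gla, Glb1, Gusb, Naglu, Manba and Man2b1, the acetyltransferase Hgsnat, the ceramidase Asah1 and the phospholipase Pla2g15 ran from -0.32 (Pla2g15) to 0.52 log2 (Glb1).

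None of the 4 membrane and lipid transfer genes was called for IFN-gamma by limma. An unadjusted p under 0.05 was reached by 1 of them (Npc1), beside 1385 of all 10437 genes. Npc2, which binds cholesterol in the lumen, read 7662, 10950.3, 10077.1 and 7434.6 without and 9728.2, 11132.4, 9647.8 and 9323.3 with IFN-gamma, so that the conditions overlapped. Its partner Npc1, which exports that cholesterol, read 496.2, 252.6, 148.4 and 323.5 without and 279.3, 163.1, 98.4 and 135.9 with it. Npc1 was lower in 4 of 4 pairs, by 0.83 log2 on average (limma adjusted p = 0.189). The membrane glycoproteins Lamp1 and Lamp2 changed by -0.13 and 0.02 log2.

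The V-ATPase subunits had a median change of -0.44 log2, and 9 of 11 (81.8%) lay below 0, beside a median of -0.09 log2 and 56.7% for all genes. In all, 5 of the 11 subunits had an unadjusted p under 0.05 in limma, beside 1385 of all 10437 genes. Atp6v1a alone passed adjustment by its representative probe set. Proteolipid subunit Atp6v0b read 2339.1, 2141, 2326.5 and 1896.6 without and 1727, 1547.5, 1453.2 and 1702.4 with IFN-gamma. Its arrays did not overlap, and the change was -0.44 log2 (limma adjusted p = 0.395). Atp6v0e, a small V0 subunit, read 2314.1, 3622.3, 2776.4 and 2297.1 without and 1635, 2563.3, 1538.8 and 1768.3 with it, lower in 4 of 4 pairs and overlapping through wild-type IFN-gamma with calcitriol. Atp6v1e1, in the V1 stalk, was likewise lower in 4 of 4 pairs, at -0.55 log2 (limma adjusted p = 0.277).

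Atp6v1c1, a V1 subunit, fell by 0.97 and 1.00 log2 in 2 of its 3 probe sets (limma adjusted p = 0.0172 and 0.0287). Its representative probe set changed by -0.69 log2 (adjusted p = 0.323) and moved down in 2 pairs and up in the other 2. Atp6v1h read 454.3, 214, 134.9 and 691.3 without and 208, 434.6, 422.6 and 271.3 with IFN-gamma. It was lower in both pairs that held neither of the 2 arrays with the highest Gapdh ratios and higher in both pairs that held one. With the ratio as a covariate its change was -0.58 log2 (limma adjusted p = 0.718), and without those 2 arrays -0.81 log2 (adjusted p = 0.627), against 0.05 log2 in the fit of all pairs. Atp6v1b2, Atp6v1f, Atp6ap1, Atp6v1d and Atp6v0d1 changed by -0.46, -0.41, -0.16, -0.06 and 0.03 log2.

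**Figure D3:**
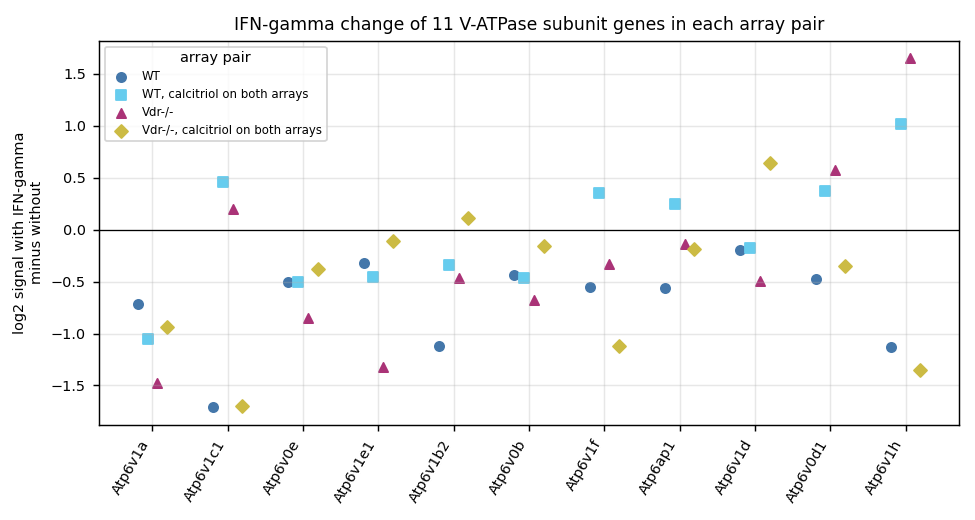
Log2 signal with IFN-gamma minus without (vertical axis) for the 11 V-ATPase subunit genes (horizontal axis, ordered by their mean change), 1 point for each of the 4 array pairs. All 4 points lie below 0 for Atp6v1a (-0.72 to -1.48), Atp6v0e, Atp6v1e1 and Atp6v0b, and the points of Atp6v1c1 and Atp6v1h split by pair.

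Without regard to the test, all 4 IFN-gamma arrays lay above all 4 others for 5 of 44 genes (Ctsc, Ctse, Ctsh, Gm2a and Ppt1), against 3.4% of all genes. They lay below for 3 of 44 (Ctsl, Atp6v0b and Atp6v1a), against 4.06%. With the Gapdh ratio as a covariate 3 members were called higher (Ctsc, Ppt1 and Ctse) and 5 lower (Ctsl, Ctsd, Atp6v1a, Atp6v1c1 and Tpp1), with 2.88% of all genes called either way. The fit of additive terms without the 2 arrays of the highest Gapdh ratios called 2 members, Ppt1 (2.35 log2, limma adjusted p = 0.0378) and Atp6v1c1 (-1.67 log2, adjusted p = 0.0466), and 0.345% of all genes. There the cathepsin group's median was -0.13 log2, while that of the V-ATPase subunits was -0.44 log2, with 10 of 11 below 0. Without the 2 untreated arrays limma called 0 members and 0.163% of all genes. There 7 members had an unadjusted p under 0.05, with no share over all genes given. All 7 genes called over the 4 pairs kept their direction in both of these fits, and Ctsc changed by 2.54 and 2.55 log2 (adjusted p = 0.0636 and 0.243). Leaving out each array pair in turn kept the calls of Ctsc and Ppt1 in 4 of 4 fits, for which no share over all genes is given. Ctsl kept its call in 2 of the 4 and missed it without the wild-type calcitriol pair (limma adjusted p = 0.0803) and without the Vdr-/- pair lacking calcitriol (adjusted p = 0.0932). Ctsh and Atp6v1a were called only without the Vdr-/- pair with calcitriol. Ctse and Ctsd were called in 0 of the 4 limma fits, with adjusted p of 0.0569 to 0.248 and 0.0853 to 0.534.

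Other lysosomal genes, outside the 46, were counted from a wider list. Of 62 tested, 6 rose and 5 fell with IFN-gamma, against 2.42% and 1.56% of all genes. Plbd1, a phospholipase B-like lumenal protein, rose by 4.92 log2 (limma adjusted p = 2.01e-10), and the amidase Naaa by 2.99 log2 (adjusted p = 5.13e-06). Pld4, a nuclease of the phospholipase D family, the chloride transporter Clcn7, the carboxypeptidase Scpep1 and the metal transporter Slc11a1 rose by 2.04, 1.35, 0.96 and 0.80 log2. Cathepsin K (Ctsk) fell by 2.16 log2, the sorting receptor Sort1 by 1.46, the V-ATPase subunit Atp6v0a1 by 1.29, the galactosylceramidase Galc by 1.18 and the protease inhibitor Serpinb6a by 1.09. By sublist, 0 of 5 further cathepsins and inhibitors rose and 2 fell, and 4 of 20 further hydrolases rose and 1 fell. Of 17 further membrane proteins 2 rose, of 9 further V-ATPase subunits 1 fell, and of 11 genes of biogenesis and sorting 1 fell. Tfeb, a transcription factor of lysosomal genes, changed by 0.16 log2 (limma adjusted p = 0.899).

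Markers of other cells moved with IFN-gamma in part, and their part in the results above was not tested. The summed signal of the stromal markers was 151 to 295 with and 381 to 731 without IFN-gamma, with 1 of 7 tested markers called lower (Col3a1). Osteoclast markers summed to 228 to 378 and 388 to 764, with 1 of 5 called lower, which was Ctsk. Dendritic cell markers summed to 916 to 2402 and 710 to 1422, with 1 of 4 called higher (Cd83). Sums were 203 to 279 and 243 to 395 for neutrophil markers (0 of 6 called) and 57 to 192 and 66 to 252 for lymphocyte markers (0 of 4). Among the neutrophil markers, Mpo read 5 to 88.3, with 2 of 8 arrays at the floor, but S100a8 read 63.6 to 209.7, with 0 at the floor. The lymphocyte genes Cd79a and Ms4a1 read at most 70.7 and 66.5, each with 4 arrays at the floor. Cd79b and Gzma read at most 70.2 and 93.4, with 1 and 2 arrays at the floor. Macrophage markers summed to 35508 to 51927 with and 53715 to 59143 without IFN-gamma, with 1 of 8 called higher (Fcgr1).

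Promoter windows of 5 of the 7 called genes are shown because these genes moved in opposite directions, and Ctsh and Ctse had no window in the table used. The windows are RefSeq sequence of the GRCm38.p6 build, 5' to 3' on the gene's strand, from 250 bases before to 50 after an annotated start. Capitals mark every match, on either strand, to the E-box CACGTG, to its longer form GTCACGTG (the core of the CLEAR element bound by TFEB, which contains the E-box), to the STAT motif TTCNNNGAA (GAS), or to the interferon response core GAAANNGAA. The coordinates are chr7:88277835-88278134 (+) for Ctsc, chr4:122835977-122836276 (+) for Ppt1, chr13:64370471-64370770 (-) for Ctsl, chr7:142387778-142388077 (-) for Ctsd and chr16:44139210-44139509 (-) for Atp6v1a.
Ctsc: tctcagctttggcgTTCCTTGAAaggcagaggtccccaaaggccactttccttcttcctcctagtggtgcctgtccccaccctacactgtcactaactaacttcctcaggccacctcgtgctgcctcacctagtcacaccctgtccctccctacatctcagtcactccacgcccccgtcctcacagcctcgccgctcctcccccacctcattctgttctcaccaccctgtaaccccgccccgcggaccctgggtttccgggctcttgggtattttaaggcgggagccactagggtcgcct
Ppt1: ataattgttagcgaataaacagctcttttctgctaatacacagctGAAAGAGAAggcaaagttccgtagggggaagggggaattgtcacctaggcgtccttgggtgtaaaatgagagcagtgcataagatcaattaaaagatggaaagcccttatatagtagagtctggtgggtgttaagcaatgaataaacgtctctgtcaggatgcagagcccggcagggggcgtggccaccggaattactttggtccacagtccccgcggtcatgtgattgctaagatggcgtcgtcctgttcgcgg
Ctsl: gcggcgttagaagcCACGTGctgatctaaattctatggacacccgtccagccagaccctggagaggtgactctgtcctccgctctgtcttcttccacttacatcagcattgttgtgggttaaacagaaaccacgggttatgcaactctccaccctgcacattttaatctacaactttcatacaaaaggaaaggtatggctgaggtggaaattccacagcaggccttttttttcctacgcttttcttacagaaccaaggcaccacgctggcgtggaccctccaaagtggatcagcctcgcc
Ctsd: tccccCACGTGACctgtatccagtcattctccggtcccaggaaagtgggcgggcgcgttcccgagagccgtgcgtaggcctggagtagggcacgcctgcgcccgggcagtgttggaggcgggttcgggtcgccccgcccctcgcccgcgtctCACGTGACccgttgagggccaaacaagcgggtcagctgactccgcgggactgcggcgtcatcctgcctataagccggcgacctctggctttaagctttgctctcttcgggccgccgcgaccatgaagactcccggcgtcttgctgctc
Atp6v1a: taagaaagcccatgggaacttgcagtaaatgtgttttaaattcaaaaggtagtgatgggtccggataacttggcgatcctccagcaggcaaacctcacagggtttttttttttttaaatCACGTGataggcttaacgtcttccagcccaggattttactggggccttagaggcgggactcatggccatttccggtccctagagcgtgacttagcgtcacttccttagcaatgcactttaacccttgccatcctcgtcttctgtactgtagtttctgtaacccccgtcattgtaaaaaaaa

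In these windows the risen genes Ctsc and Ppt1 each held 1 match to an interferon pathway motif, a GAS at position -236 and an interferon response core at -205, and no E-box. The fallen genes Ctsl and Atp6v1a held 1 E-box each, at -236 and -131, and Ctsd held the longer form at -245 and -98. Over all listed genes with a window, 13 of 37 held the E-box, against 8.09% of 27025 genes in the table. The longer form was in 9 of 37 (2.55% of all genes), GAS in 2 of 37 (9.55%) and the interferon response core in 5 of 37 (9.76%). Genes not called for IFN-gamma by their representative probe set held these motifs too. Among them were Ctss, Lamp1 and Atp6v1d for the interferon response core, and Lamp1, Lgmn, Ctsa, Gaa, Gla, Glb1 and Naglu for the E-box. Whether a motif goes with the direction of change was not tested. A match is a description of the letters, not a bound site.

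Wild type was next compared with Vdr-/- over 4 array pairs, to ask whether loss of the receptor changed lysosomal genes. No member was called (limma, lowest adjusted p = 0.999), as among all genes (0.0% called). An unadjusted p under 0.05 was reached by 0 members, beside 354 of all 10437 genes. The median difference, wild type minus Vdr-/-, was 0.25 log2 for the members, with 20.5% of them below 0, beside 0.03 log2 and 47.2% for all genes. It was 0.25 log2 for the V-ATPase subunits (10 of 11 above 0), 0.22 for the hydrolases (14 of 17), 0.27 for the membrane group (4 of 4) and 0.15 for the cathepsin group (7 of 12). The largest single differences were 0.79 log2 for Npc1 and -0.99 log2 for Cst7. Among the 4 pairs is the untreated one, whose labels the signals of Vdr went against. The highest Gapdh ratios fell on both sides, with 4.82 and 3.06 on Vdr-/- untreated and Vdr-/- IFN-gamma and 7.67 on wild-type calcitriol. Their part in these differences was not tested. The IFN-gamma effect did not pass the test of a difference between genotypes in any member (limma, 0.0% of all genes called). For this difference 2 members had an unadjusted p under 0.05, beside 383 of all 10437 genes. For Ctsc the difference of the IFN-gamma effects, wild type minus Vdr-/-, was -0.01 log2 and for Ppt1 0.50 log2.

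Calcitriol was compared with no calcitriol within each genotype, over 2 array pairs each, since the receptor is thought to mediate the hormone's action. In wild type limma called 0 of the 44 genes by their representative probe set (0.556% of all genes). There 7 had an unadjusted p under 0.05, beside 1072 of all 10437 genes. Counting any probe set, 1 gene was called (0.814% of all genes), Atp6v0b, whose second probe set fell by 2.13 log2 (SE 0.483, limma adjusted p = 0.0391). In Vdr-/- cells limma also called 0 of 44 (0.144% of all genes), with 4 at an unadjusted p under 0.05, beside 639 of all 10437 genes. By any probe set 1 gene was called (0.297%), where a Ctsb probe set rose by 2.59 log2 (SE 0.431, limma adjusted p = 0.0102). In the same comparisons the representative probe sets of Atp6v0b and Ctsb changed by -0.14 and 0.28 log2. Both called probe sets were low on the 2 arrays with the highest Gapdh ratios, as their signals below show. The median calcitriol change of the members was 0.05 log2 in wild type and 0.19 log2 in Vdr-/-.

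When the calcitriol effects of wild type and Vdr-/- were tested against each other, limma called 1 gene higher in wild type (Hgsnat; 0.22% of all genes) and 2 lower (Ctsz and Ctsd; 1.16%). By any probe set 6 of 44 genes were called, against 2.14% of all genes. Wild-type calcitriol and Vdr-/- untreated, the 2 arrays with the highest Gapdh ratios, enter this difference with the same sign.

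Ctsz read 6906.1 on the wild-type untreated array and 778.1 with calcitriol, but 509.4 on Vdr-/- untreated and 5867.3 on Vdr-/- calcitriol. With IFN-gamma it read 6413.6, 5021.8, 4338.1 and 4363.5. The 2 low arrays were those with the highest Gapdh ratios, and the other 6 lay close together. The difference, wild type minus Vdr-/-, was -3.52 log2 (SE 0.802, limma adjusted p = 0.0225), made up of -6.68 log2 without IFN-gamma and -0.36 log2 with it. Its other probe sets gave -3.40 and -2.70 log2 (adjusted p = 0.0265 and 0.0494). Without the intensity trend the Ctsz value of -3.52 log2 had an SE of 1.49 (limma adjusted p = 0.564). With the Gapdh ratio as a covariate the Ctsz value turned to 2.86 log2 (limma adjusted p = 0.315), in a fit with 1 residual degree of freedom.

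For Ctsd, whose 8 signals stand above, the calcitriol changes were -0.59 log2 in wild type and 1.53 log2 in Vdr-/-. Their difference was -2.12 log2 (SE 0.495, limma adjusted p = 0.0265), from -2.76 log2 without IFN-gamma and -1.47 log2 with it. Under the Gapdh covariate it shrank to -0.50 log2 (adjusted p = 0.961). Hgsnat, which acetylates heparan sulfate during its breakdown, read 927.2, 1119.4, 1266.9 and 506.4 without IFN-gamma and 299.4, 2665.9, 956.6 and 738.9 with it. The wild-type IFN-gamma arrays without and with calcitriol were its lowest and its highest. Its difference was 2.56 log2 (SE 0.631, limma adjusted p = 0.0368), from 1.59 log2 without IFN-gamma and 3.53 log2 with it. Under the Gapdh covariate it grew to 6.08 log2 (limma adjusted p = 8.16e-06), the 1 call for this difference that was kept there. That fit leaves 1 residual degree of freedom. Over the 8 alternative settings the Hgsnat call was kept in 2 and lost in 6.

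Of the probe sets that are not representative, Pla2g15, a lysosomal phospholipase, had the largest difference. It read 637.2, 44.6, 10.7 and 1020 without and 475.7, 118.5, 642.7 and 492.6 with IFN-gamma, where 10.7 is under the floor, so that -5.75 log2 (SE 1.15, limma adjusted p = 0.00898) understates the change. Without IFN-gamma the difference was -9.88 log2 and with it -1.62 log2. The other Pla2g15 probe set gave -1.31 log2 (adjusted p = 0.309). Atp6v0b by its second probe set read 1826.7, 192.3, 234.4 and 1682.4 without and 1312.8, 647.8, 978.1 and 1106.3 with IFN-gamma, a difference of -3.64 log2 (limma adjusted p = 0.00497). Its representative probe set, listed above, gave -0.11 log2. A Ctsb probe set read 15721.9, 2339.4, 2495.3 and 19200.5 without and 17250.5, 11343.1, 2449.9 and 11534.1 with IFN-gamma, a difference of -4.27 log2 (SE 0.609, limma adjusted p = 0.00074). It was low on the 3 arrays with Gapdh ratios of 3.06 or more, and the representative Ctsb probe set gave -0.16 log2.

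**Figure D4:**
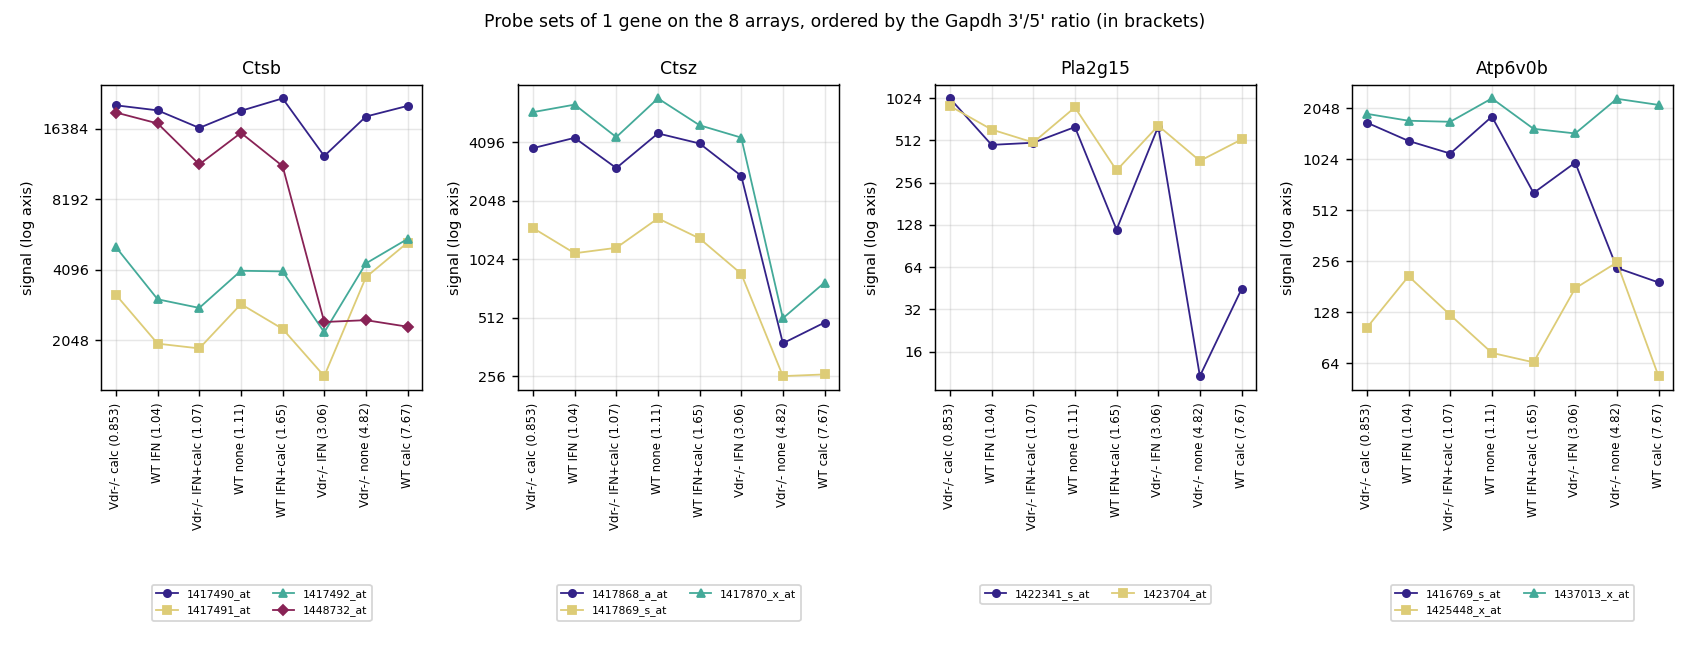
Signal (vertical log axis) of the probe sets of Ctsb, Ctsz, Pla2g15 and Atp6v0b on the 8 arrays, ordered along the horizontal axis by the Gapdh 3'/5' ratio in brackets; each line is 1 probe set. All 3 Ctsz probe sets drop on the 2 arrays at the right (ratios 4.82 and 7.67). Within each other gene at least 1 probe set drops there and another stays within the range of the other arrays.

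Over all the lysosomal genes, these 2 arrays both lay below the other 6 arrays for 11 of 44 genes, against 6.57% of all genes. Both lay above for 5 of 44, against 12%, and for 10 of the 75. The median log2 signal of the 2 arrays minus the other 6 was -0.30 over the members and 0.18 over all genes. It was -0.79 for the cathepsin group and 0.33 for the V-ATPase subunits. The lysosomal genes below on both included Ctsc, Ctsh, Ctsz, Lgmn, Cst3, Psap, Hexa and Gusb, and those above were Ctss, Lipa, Atp6v1a, Atp6v0e and Atp6v1e1. Both arrays lack IFN-gamma, so their signals enter the IFN-gamma change of every gene. All arrays with IFN-gamma were among the other 6, so an IFN-gamma change in turn enters these counts and medians. Of the genes named here, Ctsc, Ctsh and Atp6v1a were also called for IFN-gamma. The counts and medians are thus not a measure of the Gapdh ratio alone.

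Probe sets of 1 gene agreed in the sign of the IFN-gamma change in 15 of the 21 genes that had several, and disagreed in 6, among them Ctsb, Atp6v0b, Pla2g15 and Gusb. For the difference in calcitriol effect the signs agreed in 10 of the 21 genes and disagreed in 11. The other 23 genes had 1 tested probe set each. Suffixes such as x_at mark probe sets whose probes can match other transcripts, and the representative probe sets of Ctsz, Gaa and Atp6v0b carry it.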

How the data were processed

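Total RNA of the macrophages was measured on 8 one-colour arrays. The values the authors deposited are linear probe set intensity signals, scaled to a common 2% trimmed mean of 150.07 to 150.08 per array, as the values show. The sources used here name neither the software nor the scaling method. Peritoneal macrophages are also described in the labels, but each source name says bone marrow derived macrophages. The members and lists were chosen with earlier results of these data known.

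Of 22690 probe sets, 64 controls were set aside. Signals under the pooled 25th percentile (15.5) were raised to it before taking log2. Tests covered the 18058 probe sets with a signal of at least the pooled median (59.1) on some array, with 15.5% of their values at the floor. Of the probe sets, 20380 had 1 annotated gene, 691 had several and 1555 had none, and no symbol was updated. A gene was represented by its singly named tested probe set with the highest mean signal.

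Tests used limma 3.58.1 in R 4.3.3 (trend, empirical Bayes, two-sided, Benjamini-Hochberg over all tested probe sets, threshold 0.05). IFN-gamma and genotype effects were fitted with 4 array pairs as blocks, leaving 3 residual degrees of freedom, and calcitriol effects and differences with a fit nested in genotype, leaving 2. With 1 array per group, the spread is the disagreement of pairs, drawn by empirical Bayes toward that of probe sets of similar signal. SEs and p-values are therefore not those of a gene's own pairs alone. On simulated data with 200 of 18058 probe sets changed by 2 log2, the fits recovered 61.5% for IFN-gamma (4 false calls), 50% for genotype (7), 28% and 33.5% for calcitriol in wild type and Vdr-/- (4 and 7), 7.5% for the calcitriol difference (2) and 5.5% for the IFN-gamma difference (0). The simulated noise was normal, independent between arrays and probe sets, and had the spread that limma itself estimated. It held no truncated arrays, so the false calls say nothing about such arrays in these data.

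Signals are given for each gene called in any contrast and for the probe sets with the highest and lowest median in each group, and the levels of different probe sets are not compared. Alternatives were quantile normalization, other filters and floors, no trend, averaging the probe sets of a gene, the Gapdh ratio as covariate, additive fits without 2 arrays, and each pair left out. Counting a gene by any probe set was added after seeing the data. Figures used Python 3.11.15 and matplotlib 3.10.9.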

Additional observations from a re-analysis of the deposited data

Results flagged for a closer look

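In 8 probe sets of 6 lysosomal genes the calcitriol effect differed between wild type and Vdr-/- by limma's test of the difference itself, each adjusted over all probe sets. The values, wild type minus Vdr-/-, were -3.64 log2 for Atp6v0b, -4.27 for Ctsb, -2.12 for Ctsd, -3.52, -3.40 and -2.70 for the 3 probe sets of Ctsz, 2.56 for Hgsnat and -5.75 for Pla2g15. Among the arrays with IFN-gamma alone, where neither of the 2 arrays with the highest Gapdh ratios enters, the same differences were -1.20 for Atp6v0b, -2.84 for Ctsb, -1.47 for Ctsd, -0.36, -0.23 and -0.19 for Ctsz, 3.53 for Hgsnat and -1.62 for Pla2g15. These last values rest on 4 arrays and have no test. The array with the next highest ratio (3.06), Vdr-/- IFN-gamma, does enter them, and on it Ctsb (2449.9) and Ctsd (1123.2) were the lowest of the 4. Every difference without IFN-gamma rests on the labels of the 2 untreated arrays, which the signals of Vdr went against.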

How the results depend on the processing

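The number of lysosomal genes called for IFN-gamma was 7 (4 higher, 3 lower). It was 2 without a filter (2 and 0), 1 without the intensity trend (1 and 0), 0 without the 2 untreated arrays (0 and 0), 2 without the 2 arrays of the highest Gapdh ratios (1 and 1), and 11 by any probe set. Of all genes, the last 3 settings called 0.163%, 0.345% and 4.35%, and the Gapdh covariate 2.88%. For the other settings no share over all genes is given. Calls lost there by the members cannot be told apart from calls lost by all genes. With the Gapdh covariate 3 were higher, as Ctsh missed the threshold, and 5 were lower, as Atp6v1c1 and Tpp1 passed it. Leaving out 1 pair at a time gave 2 to 6, with 2 to 4 higher and 0 to 2 lower. No sign of the 7 genes changed in 15 alternatives each, and the calls of Ctsc and Ppt1 held in 13 of 15. Calcitriol calls went from 0 to 1 in wild type with a floor at the 40th percentile, 2 with the Gapdh covariate and 1 by any probe set, and in Vdr-/- from 0 to 1, 1 and 1. The 3 calls for the difference became 0 without a filter, with a stricter filter, with a floor at the 10th percentile, without the trend and with the mean over probe sets, 1 with the Gapdh covariate and 6 by any probe set. By any probe set, 0.814% (wild type), 0.297% (Vdr-/-) and 2.14% (difference) of all genes were called. For the other settings of these comparisons no share over all genes is given, so changes in the member counts cannot be told apart from changes over all genes. Under the Gapdh covariate, in a fit with 1 residual degree of freedom, the Ctsz difference turned to 2.86 log2. Causes were not tested. Genotype and the IFN-gamma difference kept 0 calls in every alternative run. Quantile normalization moved the median of all genes by at most 0.05 log2 in size. No paired analysis by replicate number was possible because each group has 1 array. Precision is limited by having 8 arrays and by signals near background.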
